A study of Mus musculus with 22 samples.

Results

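Regulators of G-protein signalling (RGS proteins) were followed through their transcripts in isolated mouse pancreatic islets, the endocrine cell clusters that hold the insulin-secreting beta cells. The members were 10 genes taken by symbol from the deposited expression table: Rgs16, Rgs2, Rgs3, Rgs4, Rgs5, Rgs7, Rgs9, Rgs10, Rgs11 and Rgs17. Each symbol had 1 row, so 10 of the 57010 gene IDs of the table were used, and all 10 passed the filter on low values that 16756 IDs passed. The symbols were chosen with earlier results of these data known, in which Rgs16 stood out between genotypes on the C57 background. The values of Rgs16 in that contrast, and in the contrasts that use the same mice, are therefore given as a description with no test.

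Polyadenylated RNA was sequenced from the islets of 22 male mice at 5.5 weeks of age (5 to 6 weeks in the column labels), 1 library per mouse. Mice were wild type (WT) for MafA or heterozygous (Het) for its S64F allele, on a background that the labels call C57 or on one that they call Mixed. The groups were C57 WT (n = 5), C57 Het (n = 6), Mixed WT (n = 5) and Mixed Het (n = 6), with no treatment named for any of them. MAFA is a transcription factor of mature beta cells that drives insulin and other beta-cell genes. The labels do not say how the S64F allele was made, how many founders it came from, or which strains make up the Mixed background. Het mice keep 1 WT allele.

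RGS proteins bind the GTP-loaded alpha subunit of a heterotrimeric G protein and speed up hydrolysis of the GTP, which ends the signal that a receptor started. Most act on the Gi/o class, many also on the Gq class, and they are grouped by sequence. The R4 family, here Rgs16, Rgs2, Rgs3, Rgs4 and Rgs5, holds mostly small proteins made of little more than the RGS domain. The R7 family, here Rgs7, Rgs9 and Rgs11, works as a complex with the G-protein beta subunit Gnb5. Rgs10 belongs to the R12 family and Rgs17 to the RZ family, which also acts on Gz. In islets, Gi/o-coupled receptors such as those for somatostatin and adrenaline restrain insulin secretion, and Gq-coupled receptors such as those for acetylcholine and long-chain fatty acids raise it.

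The promoters of Rgs16, Rgs4 and Rgs2 are shown because these genes had the largest differences between groups among the members and lie on the same chromosome. The 250 bases before the annotated start are given 5′ to 3′ on the gene's strand, from RefSeq on build GRCm38.p6, which is not the build named for the expression table (mm39). The spans are chr1:153740103-153740352 on the plus strand for Rgs16, chr1:169747643-169747892 on the minus strand for Rgs4 and chr1:144004150-144004399 on the minus strand for Rgs2. Capitals mark TGACG, the short core of the cAMP response element, on either strand.
Rgs16: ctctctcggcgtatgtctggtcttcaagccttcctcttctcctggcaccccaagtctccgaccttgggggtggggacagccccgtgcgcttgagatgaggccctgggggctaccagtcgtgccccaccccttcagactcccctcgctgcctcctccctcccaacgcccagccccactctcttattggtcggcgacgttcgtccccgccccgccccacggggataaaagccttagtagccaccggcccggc
Rgs4: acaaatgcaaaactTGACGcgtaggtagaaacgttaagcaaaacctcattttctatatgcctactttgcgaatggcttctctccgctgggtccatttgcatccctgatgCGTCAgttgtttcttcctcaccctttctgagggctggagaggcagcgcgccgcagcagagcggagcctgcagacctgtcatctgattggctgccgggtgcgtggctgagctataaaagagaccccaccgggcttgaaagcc
Rgs2: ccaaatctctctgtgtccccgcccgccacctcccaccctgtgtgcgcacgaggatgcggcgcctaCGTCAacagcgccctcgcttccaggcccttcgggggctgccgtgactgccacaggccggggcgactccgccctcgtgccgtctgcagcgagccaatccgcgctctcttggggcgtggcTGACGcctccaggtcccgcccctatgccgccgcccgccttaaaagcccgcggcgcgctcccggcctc
The Rgs4 and Rgs2 promoters each held 2 copies of TGACG, and the Rgs16 promoter held none. Over windows of 300 bases, 250 before and 50 after the start, TGACG on either strand was present in 20.8% of all 32851 promoters of the table and in those of 2 of the 9 members that had one. TGCTGA, the core of the MAF recognition element, was in 19.5% of all promoters and in those of 3 members, Rgs3, Rgs5 and Rgs9. CACGTG, the E-box core that carbohydrate-response elements carry, was in 7.15% of all promoters and in that of 1 member, Rgs7. Both strands were searched, TGCTGA and TGACG share the letters TGA, and no promoter of a member held both. Rgs11 was not searched. In the order of protein-coding genes of a RefSeq gene list, Rgs4 and Rgs5 were direct neighbours, Rgs16 was next to Rgs8, and Rgs2 was next to Rgs13.

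Values are in TPM, a transcript abundance unit that divides reads by transcript length and scales each library to 1000000, so levels can be compared between genes. The deposited values keep no read depth, so no limit of detection was computed. Between 14812 and 16133 genes reached 1 TPM per sample. The islet label held against its markers: 8 beta-cell markers summed to between 250695 and 479328 TPM in each sample, and 6 acinar markers to at most 1498 TPM. Mafa itself averaged 116.7 ± 23.2 TPM (SD, n = 6) in C57 Het against 440.6 ± 87.6 (n = 5) in C57 WT, and 151.6 ± 37.1 (n = 6) in Mixed Het against 597.7 ± 142.8 (n = 5) in Mixed WT. The table does not separate the transcripts of its 2 alleles.

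The members spanned a wide range of levels, and the Het and WT islets differed in which of them was the most abundant. In C57 WT islets the 10 members summed to 641.8 ± 118.4 TPM (SD, n = 5), of which Rgs11 made up 25.2% ± 2.86, Rgs16 24.7% ± 8.67, Rgs5 19.2% ± 4.25, Rgs2 13.2% ± 7.62 and Rgs4 9.33% ± 4.38. In C57 Het islets the sum was 494.0 ± 39.2 TPM (n = 6), and Rgs4 led with 26.0% ± 6.34 while Rgs16 made up 5.57% ± 0.986. In Mixed WT islets the sum was 512.8 ± 47.4 TPM (n = 5), with Rgs11 at 29.5% ± 6.34, Rgs16 at 16.5% ± 3.34 and Rgs4 at 15.8% ± 7.36. In Mixed Het islets the sum was 561.0 ± 48.3 TPM (n = 6), with Rgs4 at 32.3% ± 5.22, Rgs11 at 12.1% ± 2.09 and Rgs16 at 8.93% ± 2.93. By group mean, Rgs4 moved from rank 5 in C57 WT and rank 4 in Mixed WT to rank 1 in both Het groups, and Rgs11 from ranks 2 and 1 to rank 4. Rgs3, Rgs7, Rgs17 and Rgs10 stayed below 15 TPM in every sample.

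**Figure D1:**
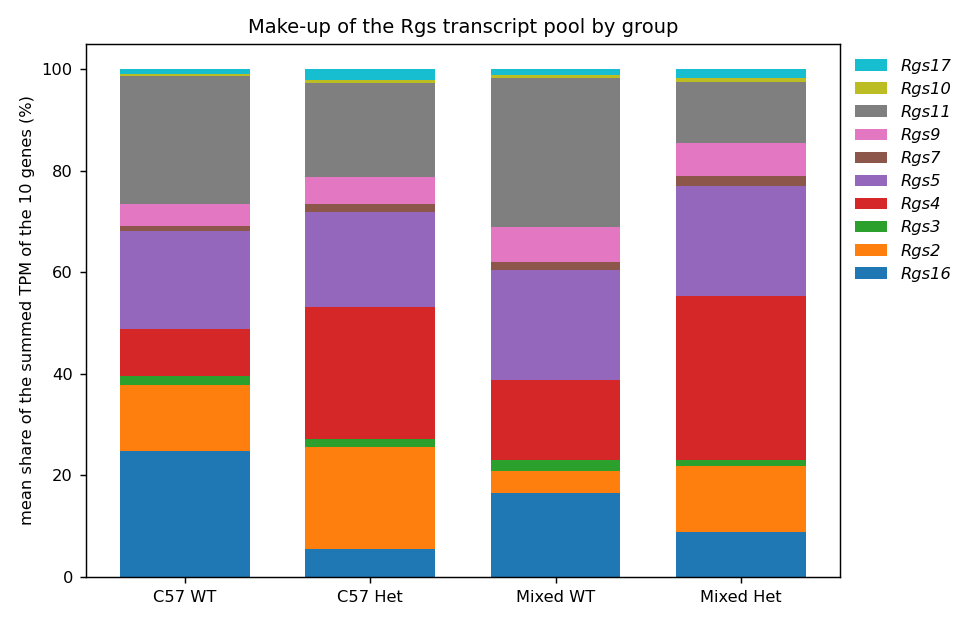
Mean share of each member in the summed TPM of the 10 members (vertical axis, percent), as 1 stacked bar for each of the 4 groups. Rgs4 takes the largest mean share in both Het groups (26.0% and 32.3%), and Rgs11 and Rgs16 take smaller mean shares there than in the WT groups.

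Between genotypes, the limma fit on log2(TPM + 1) with Benjamini-Hochberg adjustment over all 16756 genes called 5 of the 9 members other than Rgs16 in C57 at an adjusted p under 0.05, 3 higher in Het (Rgs4, Rgs17, Rgs7) and 2 lower (Rgs11, Rgs3), where it called 38% of all genes, 26.4% higher and 11.6% lower. Rgs16 is left out of that count, and nothing is read from the count, because the members were chosen with that contrast known. In Mixed it called 8 of 10, 5 higher (Rgs2, Rgs4, Rgs17, Rgs10, Rgs7) and 3 lower (Rgs11, Rgs16, Rgs3), against 44.1% of all genes, 30.7% higher and 13.5% lower. The 5 members called in C57, of the 9 other than Rgs16, were called in Mixed in the same direction. Over all genes, 3745 of the 6362 called in C57 were, and these 3745 are 22.4% of all genes tested. The contrasts used different mice. The median log2 difference over the members was -0.06 in C57 and 0.23 in Mixed, against 0.08 and 0.10 over all genes tested. The median-of-ratios scaling moved the median of all genes to -0.01 in both contrasts, a shift of over 0.1 in Mixed against the deposited scale. Of all genes called, 69.5% were higher in Het in each contrast on the deposited scale, and 49.9% in C57 and 49.4% in Mixed with that scaling. Among the members it added Rgs5 to the lower ones in C57 and left 5 higher and 3 lower in Mixed.

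**Figure D2:**
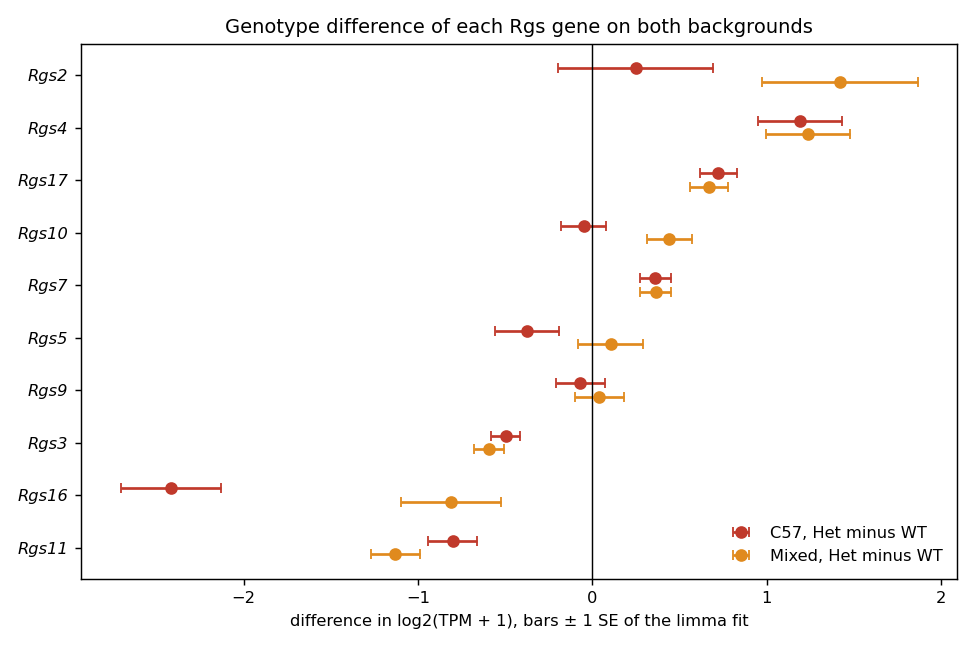
Difference between Het and WT islets in log2(TPM + 1) for each member on the horizontal axis (points, with bars of ± 1 SE of the limma fit), red for C57 and orange for Mixed. Rgs4, Rgs17 and Rgs7 lie to the right of 0 and Rgs16, Rgs11 and Rgs3 to the left in both backgrounds, and Rgs16 has the lowest value in C57 at -2.42.

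Rgs16, an R4 member that acts on Gi/o and Gq and is expressed in islet endocrine cells, was lower in Het islets. On C57 the 5 WT islets had 287.5, 94.5, 122.3, 105.3 and 209.4 TPM, and the 6 Het islets ranged from 18.7 TPM to 31.5 TPM with a median of 29.1 TPM. Every C57 Het value lay below the lowest C57 WT value, and the WT values were more spread than the Het values. The Het mean was 16.8% of the WT mean, and the log2(TPM + 1) difference was -2.42 (SE 0.29). On Mixed the 5 WT islets had 100.1, 85.3, 60.9, 75.6 and 99.8 TPM, and the 6 Het islets ranged from 18.7 TPM to 65.2 TPM with a median of 56.8 TPM. These groups overlapped, since the highest Het islets exceeded the lowest WT islet.

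The difference of Rgs16 in Mixed was -0.81 (SE 0.29) with a limma adjusted p of 0.0261, and p was 0.0216 in a two-sided exact permutation test over these mice, where the smallest p over the 462 splits is 0.00216. This call rested on single mice. Without Mixed Het replicate 4, which had 18.7 TPM, the difference was -0.55 (limma adjusted p = 0.0653). Without Mixed WT replicate 1 or replicate 5 it was -0.74 in each case (limma adjusted p = 0.0583 and 0.0566), and with no filter on low values the limma adjusted p was 0.0594. By mean, Rgs16 ran from 163.8 ± 82.6 TPM in C57 WT through 84.4 ± 16.7 in Mixed WT and 50.5 ± 17.6 in Mixed Het to 27.5 ± 4.69 in C57 Het. Each pair of neighbours in that order overlapped in range. The genotype difference was 1.61 (SE 0.41) less negative in Mixed than in C57 on the log2 scale, a description with no test.

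In whole islets, fewer cells of a type and less RNA per cell cannot be told apart. The summed markers of cell types in these samples differed between the same groups. The 8 beta-cell markers summed to 428882 ± 33133 TPM in C57 WT against 350286 ± 21855 in C57 Het, and to 433512 ± 32874 in Mixed WT against 313313 ± 33327 in Mixed Het. Ins1, Ins2 and Iapp made up between 98.73% and 99.03% of these sums. Gene by gene, limma called 2 of the 8 lower in C57 (Mafa, Ins1) and 1 higher (G6pc2), and 5 lower and 0 higher in Mixed. The 6 alpha-cell markers averaged 38385 TPM in C57 WT (range 19157 to 57638) against 91418 in C57 Het (71593 to 117607), and 20415 in Mixed WT (15972 to 27693) against 90566 in Mixed Het (65557 to 107378). The 4 delta-cell markers averaged 7365, 11708, 10338 and 25977 TPM in the same order. Markers of cells outside the endocrine islet were lower in level, and their means also differed. The 6 acinar markers averaged 271.8 ± 73.5, 772.3 ± 477.3, 464.9 ± 250.2 and 803.7 ± 192.1 TPM, and the Het and WT ranges of this sum overlapped on both backgrounds. Gene by gene, limma called 6 of the 6 acinar markers higher in C57 Het and 1 higher in Mixed Het. The 5 duct markers averaged 134.6 ± 7.77, 202.3 ± 44.2, 136.8 ± 23.8 and 346.4 ± 146.8 TPM. The 6 fibroblast and stellate markers averaged 36.9 ± 16.7, 38.3 ± 8.53, 33.3 ± 10.4 and 148.3 ± 103.1 TPM, and ran from 46.5 to 338.2 TPM in Mixed Het. Called higher in Het were 6 of 6 alpha-cell and 4 of 4 delta-cell markers in C57, and 5 and 4 in Mixed. Of 5 duct markers 2 were called higher in C57 and 5 in Mixed, and of 5 fibroblast markers past the filter 0 and 5. Over all genes, 26.4% were called higher in C57 and 30.7% in Mixed. The part of these shifts in the results on the members was not tested.

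Rgs4, an R4 member known to limit muscarinic signals in beta cells, rose in Het islets on both backgrounds. The C57 WT islets had 51.4, 78.4, 68.9, 44.5 and 38.5 TPM, and the C57 Het islets ranged from 95.4 TPM to 172.8 TPM with a median of 129.4 TPM. No Het value fell among the WT values, and the difference was 1.19 (SE 0.24, limma adjusted p = 0.000696). The Mixed WT islets had 167.2, 62.1, 60.9, 51.5 and 73.8 TPM, and the Mixed Het islets ranged from 145.5 TPM to 252.4 TPM with a median of 174.8 TPM. Mixed WT replicate 1 stood apart from the other 4 WT islets and lay inside the Het range. The difference was 1.24 (SE 0.24, limma adjusted p = 0.000300) with that mouse and 1.52 (limma adjusted p = 3.48e-06) without it. Rgs4 and Rgs16 thus had opposite differences between genotypes on both backgrounds.

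Rgs2, an R4 member that prefers Gq and is induced by cAMP and calcium signals in many cells, varied most among the members from mouse to mouse in 3 of the 4 groups, with coefficients of variation of 61.9% in C57 WT, 48.5% in C57 Het and 64.9% in Mixed Het. The C57 WT islets had 57.4, 63.9, 85.6, 170.0 and 38.4 TPM, and the C57 Het islets ranged from 25.8 TPM to 142.3 TPM with a median of 123.6 TPM. These groups overlapped almost throughout, with a difference of 0.25 (SE 0.45, limma adjusted p = 0.695). The Mixed WT islets had 26.4, 22.8, 28.9, 19.6 and 14.7 TPM, and the Mixed Het islets ranged from 31.6 TPM to 147.9 TPM with a median of 54.2 TPM. Every Mixed Het islet lay above every Mixed WT islet, and Rgs2 rose there by 1.42 (SE 0.45, limma adjusted p = 0.0131).

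The genotype difference of Rgs2 was not shown to differ between backgrounds (interaction 1.17, SE 0.63, limma adjusted p = 0.245). Between the WT groups, Rgs2 was lower in Mixed than in C57 with no overlap of the ranges (-1.69, SE 0.46, limma adjusted p = 0.0209). That call was lost without C57 WT replicate 4, which had the highest Rgs2 of its group (-1.39, limma adjusted p = 0.0581), and with no filter on low values (limma adjusted p = 0.0509). The 7 immediate early genes summed to between 6217 and 13147 TPM in Mixed WT, where Rgs2 was low, between 4839 and 7622 TPM in Mixed Het, between 4290 and 9651 TPM in C57 WT and between 5251 and 8070 TPM in C57 Het. The part of activity or tissue handling in the level of Rgs2 was not tested.

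**Figure D3:**
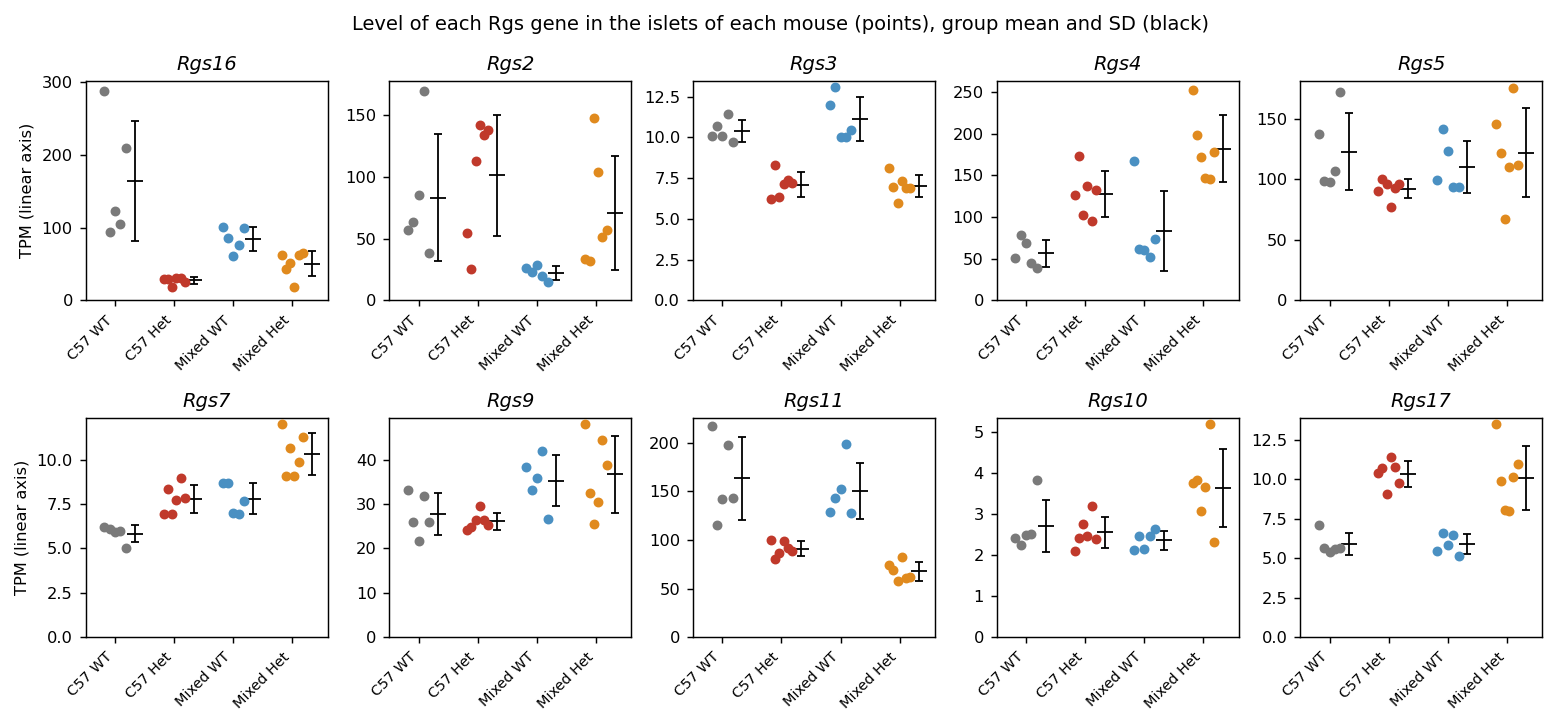
TPM of each member in every sample (points; linear vertical axis with its own scale for each gene) by group, with the group mean ± SD in black. Rgs16 is lower and Rgs4 higher in the Het groups, and Rgs2 is widely spread within groups, from 25.8 to 142.3 TPM in C57 Het.

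Rgs3, an R4 member with longer forms that act on Gi and Gq signals, fell in Het islets with little spread between mice. The C57 WT islets had 10.1, 10.7, 10.1, 11.4 and 9.71 TPM, and the C57 Het islets ranged from 6.21 TPM to 8.30 TPM. The Mixed WT islets lay between 10.03 and 13.1 TPM and the Mixed Het islets between 5.9996 and 8.11 TPM. The groups were separate on both backgrounds, with differences of -0.50 (SE 0.085, limma adjusted p = 0.000151) in C57 and -0.59 (limma adjusted p = 1.16e-05) in Mixed.

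Rgs5, an R4 member that is a standard marker of pericytes, did not pass the test between genotypes. The C57 WT islets had 137.3, 99.0, 98.2, 107.3 and 172.0 TPM, and the C57 Het islets ranged from 77.6 TPM to 100.7 TPM (difference -0.38, SE 0.18, limma adjusted p = 0.113). This difference passed the threshold under each of the 3 other scalings and in the fit on the C57 samples alone. The Mixed WT islets lay between 93.4 and 141.6 TPM and the Mixed Het islets between 67.0 and 175.9 TPM (difference 0.10, limma adjusted p = 0.674). The direction in Mixed flipped under each of the 3 other scalings.

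The summed level of 7 pericyte and smooth muscle markers was high in the mice with the most Rgs5. It was 90.6 TPM in Mixed Het replicate 5, which had 175.9 TPM of Rgs5, and 35.5 TPM in Mixed Het replicate 3, which had 67.0 TPM. It was 88.7 TPM in C57 WT replicate 5, which had 172.0 TPM of Rgs5. Within Mixed WT the order was not shared, since replicate 4 had the highest sum (53.2 TPM) with 94.1 TPM of Rgs5, and replicate 3 the lowest (45.6 TPM) with 123.3 TPM. By group the marker sum averaged 57.5 ± 19.2 TPM in C57 WT, 39.2 ± 3.48 in C57 Het, 49.5 ± 3.48 in Mixed WT and 63.8 ± 21.8 in Mixed Het. The part of these cells in the level of Rgs5 was not tested.

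**Figure D4:**
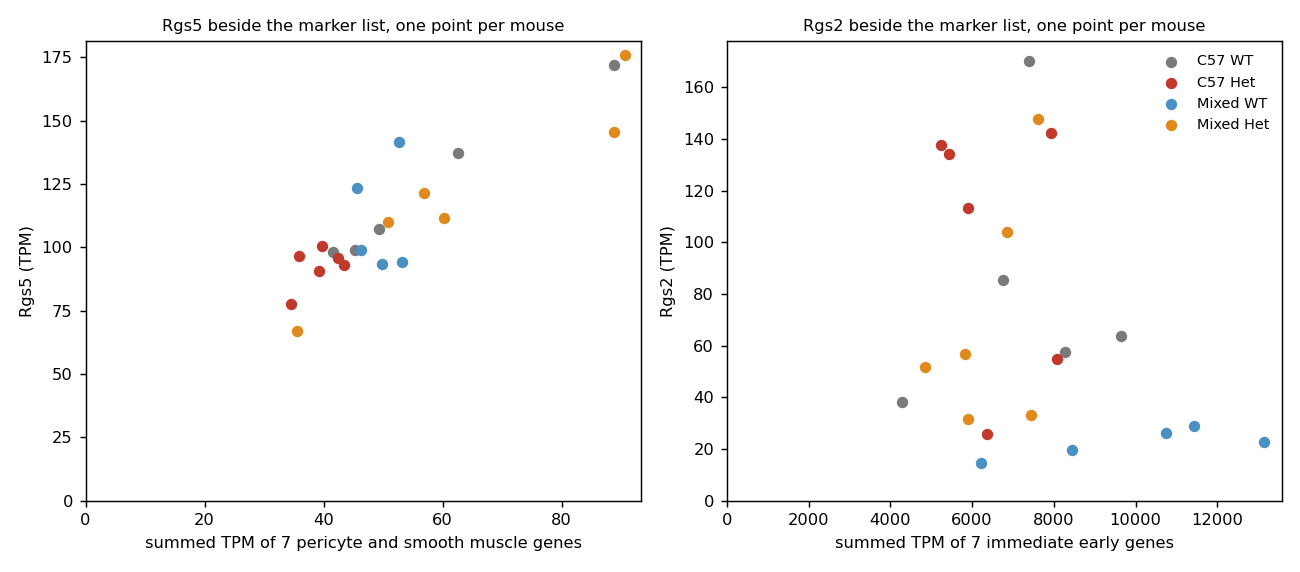
Rgs5 TPM against the summed TPM of pericyte and smooth muscle markers, and Rgs2 TPM against the summed TPM of immediate early genes, 1 point per mouse coloured by group. The 3 mice with the highest pericyte marker sums have 145.4 to 175.9 TPM of Rgs5. The Mixed WT mice combine low Rgs2 (14.7 to 28.9 TPM) with immediate early gene sums of 6217 to 13147 TPM.

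In the R7 family, Rgs11 and Rgs7 differed in opposite directions and Rgs9 did not pass the test. Rgs11, a neuronal Gi/o regulator that needs Gnb5 to be stable, had 217.9, 115.1, 142.6, 197.9 and 143.3 TPM in C57 WT and ranged from 80.1 TPM to 99.6 TPM in C57 Het. In Mixed WT it had 129.2, 142.8, 152.4, 198.8 and 127.9 TPM, and in Mixed Het it ranged from 57.6 TPM to 83.0 TPM. Every Het islet lay below every WT islet of its background. Rgs11 fell by 0.80 (SE 0.14, limma adjusted p = 0.000191) in C57 and by 1.13 (limma adjusted p = 1.86e-06) in Mixed. Among Het islets it was lower in Mixed than in C57 (-0.43, limma adjusted p = 0.0258), a call that was lost with no filter and without any one of C57 Het replicates 1 and 4 and Mixed Het replicates 3, 5 and 6.

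Rgs7, a Gi/o regulator of neurons, was low and rose on both backgrounds. Its C57 values lay between 5.001 and 6.18 TPM in WT and between 6.91 and 8.97 TPM in Het, and its Mixed values between 6.93 and 8.70 TPM in WT and between 9.08 and 12.0 TPM in Het. The ranges of Het and WT were separate in each background, with differences of 0.36 (SE 0.089, limma adjusted p = 0.00307) in C57 and 0.36 (limma adjusted p = 0.00223) in Mixed. Mixed exceeded C57 by 0.36 in WT (limma adjusted p = 0.0136) and by 0.36 in Het (limma adjusted p = 0.00412). The difference in WT did not pass in a fit on those samples alone.

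Rgs9, known from photoreceptors and striatal neurons, lay between 21.6 and 48.1 TPM over all samples. Its differences between genotypes were -0.07 in C57 (limma adjusted p = 0.732) and 0.04 in Mixed (limma adjusted p = 0.839). The sign in Mixed flipped under each of the 3 other scalings, and the sign in C57 flipped with sample weights. Among Het islets Rgs9 was higher in Mixed, at 36.6 ± 8.65 TPM, than in C57, at 26.1 ± 1.94 TPM (0.44, limma adjusted p = 0.0216). That call was lost without Mixed Het replicate 1 or without replicate 5, the highest of their group.

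Of the R7 partners, the 4 of 5 genes that passed the filter included Gnb5, the obligate beta subunit, which was higher in C57 Het (0.26, limma adjusted p = 0.0144) and did not pass in Mixed (0.18, limma adjusted p = 0.0821). Gnb5 averaged 17.4 ± 1.78 TPM in C57 WT, 21.1 ± 2.26 in C57 Het, 20.7 ± 1.27 in Mixed WT and 23.6 ± 2.03 in Mixed Het. The call in C57 was lost under each of the 3 other scalings. Rgs11, which fell on both backgrounds, was the most abundant R7 member in each group. The orphan receptors Gpr158 and Gpr179, which bring R7 complexes to the membrane, split in Mixed, where Gpr158 fell by 0.75 (limma adjusted p = 0.000258) and Gpr179 rose by 0.99 (limma adjusted p = 0.00306). The anchor gene Rgs9bp did not pass the filter, and Rgs7bp was not called between genotypes.

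Rgs10, the R12 member, a Gi regulator of immune cells and neurons, was the least abundant. It lay between 2.09 and 3.82 TPM in both C57 groups, with a difference of -0.05 (limma adjusted p = 0.796) whose sign flipped without C57 WT replicate 5, the highest of its group. On Mixed it had 2.11, 2.46, 2.14, 2.48 and 2.63 TPM in WT and ranged from 2.33 TPM to 5.19 TPM in Het. All but 1 of the Mixed Het islets lay above the WT range, and Rgs10 rose by 0.44 (SE 0.13, limma adjusted p = 0.00883). Among Het islets it was higher on Mixed than on C57 (0.37, limma adjusted p = 0.0399), a call that was lost under 5 other settings and with 8 of the 12 Het mice left out in turn. The 5 macrophage markers summed to 203.2 ± 21.96 TPM in C57 WT, 122.7 ± 17.1 in C57 Het, 98.0 ± 10.9 in Mixed WT and 148.5 ± 50.0 in Mixed Het. The part of macrophages in the level of Rgs10 was not tested.

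Rgs17, the RZ member, which acts on Gi/o and Gz, rose in Het islets on both backgrounds. The C57 WT islets had 7.13, 5.68, 5.41, 5.603 and 5.64 TPM, and the C57 Het islets ranged from 9.07 TPM to 11.4 TPM with a median of 10.6 TPM. The Mixed WT islets had 5.47, 6.61, 5.83, 6.50 and 5.13 TPM, and the Mixed Het islets ranged from 7.99 TPM to 13.5 TPM with a median of 10.02 TPM. The groups were separate on both backgrounds. The differences were 0.72 (SE 0.11, limma adjusted p = 3.37e-05) in C57 and 0.67 (limma adjusted p = 3.92e-05) in Mixed, and neither genotype differed between backgrounds beyond the test's threshold.

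Counted by overlap, 5 of the 9 members other than Rgs16 had Het and WT ranges that did not overlap in C57, 3 higher in Het and 2 lower, where 21% of all genes did (15.9% higher, 5.04% lower). In Mixed 5 of 10 did, 3 higher and 2 lower, where 23.6% of all genes did (17.9% higher, 5.76% lower). Between backgrounds, 2 of these 9 members were called in WT islets (Rgs7 higher in Mixed, Rgs2 lower), against 11.3% of all genes (6.3% higher, 4.99% lower). Both had ranges that did not overlap, as 6.12% of all genes did. In Het islets 4 of these 9 were called, 3 higher in Mixed (Rgs9, Rgs10, Rgs7) and 1 lower (Rgs11), against 20.5% of all genes (13.3% higher, 7.13% lower). The ranges of 1 member, Rgs7, did not overlap, against 9.85% of all genes. For the interaction limma called 0 of these 9, against 7.36% of all genes (4.62% higher, 2.74% lower), with interactions from -0.33 for Rgs11 to 1.17 for Rgs2, a lowest adjusted p of 0.0993 and 1 gene at an unadjusted p under 0.05. Comparisons that share a group of mice are not independent of each other.

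Of the 11 other RGS genes in the table, Rgs1, Rgs12 and Rgs19 passed the filter, and Rgs6, Rgs8, Rgs13, Rgs14, Rgs18, Rgs20, Rgs21 and Rgs22 did not. Of these 3, limma called 0 between genotypes in C57 (2 at an unadjusted p under 0.05). Rgs19, an RZ member that acts on Gi, averaged 3.40 ± 0.609 TPM in Mixed WT and 6.29 ± 0.841 in Mixed Het with separate ranges, and rose by 0.73 (limma adjusted p = 1.31e-05). In C57 it averaged 3.17 ± 0.520 TPM in WT and 3.96 ± 0.371 in Het (0.26, limma adjusted p = 0.0620). Rgs1, an R4 member of immune cells, rose in Mixed from 2.14 ± 0.627 to 4.27 ± 0.909 TPM (0.75, limma adjusted p = 0.000208) and had a negative difference in C57, from 3.78 ± 0.340 to 2.86 ± 0.572 TPM (-0.32, limma adjusted p = 0.0800). The interaction of Rgs1 passed the test (1.07, limma adjusted p = 0.00443). The macrophage marker sums given beside Rgs10, mostly C1qa in C57, were lowest in Mixed WT and highest in C57 WT. Rgs1 was lowest in Mixed WT and highest in Mixed Het. Of the 4 macrophage markers past the filter, limma called 1 lower in C57 (C1qa) and 4 higher in Mixed. It called 11.6% of all genes lower in C57 and 30.7% higher in Mixed. The interaction passed for C1qa (1.28), Cd68 (1.18) and Adgre1 (0.69) and not for Csf1r (0.51), against 7.36% of all genes. The part of these cells in the level of Rgs1 was not tested. Rgs12 of the R12 family stayed between 3.52 and 4.14 TPM on average in the 4 groups and was not called in either genotype contrast.

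The counts over the lists below stand beside calls for 26.4% of all genes higher and 11.6% lower in C57, and 30.7% higher and 13.5% lower in Mixed. Of the 5 substrates of most RGS proteins, the Gi, Go and Gz alpha subunits, 3 rose in C57 (Gnai1, Gnai3, Gnao1), and in Mixed 1 rose (Gnai1) and 1 fell (Gnai2). Gnai1 averaged 19.2 ± 4.11 TPM in C57 WT against 31.0 ± 5.84 in C57 Het (0.67, limma adjusted p = 0.00361), and 11.4 ± 2.56 in Mixed WT against 26.4 ± 6.48 in Mixed Het (1.13, limma adjusted p = 1.48e-05). Gnai2, the most abundant of the 5, fell by 0.26 in Mixed (limma adjusted p = 0.00407). Gnai3 rose by 0.55 in C57 (limma adjusted p = 0.00121) and had a difference of -0.26 in Mixed (limma adjusted p = 0.0776), with an interaction of -0.81. Gnao1 rose by 0.36 in C57 (limma adjusted p = 0.0131), a call lost without C57 WT replicate 5, and Gnaz was not called. Under each of the 3 other scalings the Mixed count became 1 higher and 3 lower, with Gnai3 and Gnaz added.

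Of the Gq class, 1 of 3 measured members rose in C57 (Gna14) and 2 in Mixed (Gna14 by 0.58 and Gnaq by 0.30), while Gna11 was not called. The call of Gna14 in C57 was lost with no filter, with the median-of-ratios scaling, with the total without the most abundant genes and with sample weights, and in 7 of the 22 fits with a mouse left out, and the filter at a mean of 5 TPM removed the gene. All 3 measured members of the Gs, G12 and G13 list rose on both backgrounds, including Gnas, the Gs alpha subunit, and 2 of the 3 (Gnas and Gna12) did so under each of the 3 other scalings. Gnas averaged 264.5 ± 37.6 TPM in C57 WT against 383.1 ± 33.7 in C57 Het, and 246.0 ± 32.0 in Mixed WT against 543.4 ± 87.9 in Mixed Het. Of 11 measured beta and gamma subunits, 4 rose and 2 fell in C57, and 6 rose and 0 fell in Mixed. The fall of Gnb2 in C57 lost its call under 4 other settings and in 14 of the 22 fits with a mouse left out. In Mixed the 6 became 4 with median-of-ratios scaling, 5 with quantile normalization and 4 with the total without the most abundant genes. Gng2 rose by 0.75 in C57 and 1.02 in Mixed, and Gng11 fell by 0.84 in C57, a call lost without C57 WT replicate 5 (-0.58). Of all genes, 38% were called in C57 and 44.1% in Mixed, against 6 of 11 here on each background.

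Among 13 measured Gi-coupled receptors, beside 38% of all genes called in C57 and 44.1% in Mixed, 2 rose and 5 fell in C57, and 4 rose and 5 fell in Mixed. The somatostatin receptor Sstr2 rose by 0.93 in C57 and 1.87 in Mixed, and Ffar3, a receptor for short-chain fatty acids, fell by 1.61 and 1.47. Among 9 measured Gq-coupled receptors, 4 rose and 1 fell in C57, and 4 rose and 2 fell in Mixed. The oxytocin receptor Oxtr rose by 1.89 and 2.68, and Ffar1, the receptor for long-chain fatty acids on beta cells, fell by 1.17 and 1.27. The receptor kinases, arrestins and other regulators showed 1 higher and 2 lower of 12 in C57, and 2 higher and 3 lower in Mixed. Ric8b, a chaperone of Gs alpha, rose by 0.84 and 0.70, and the receptor kinase Grk3 fell by 0.34 and 0.93. The C57 call of Grk3 was lost with no filter, in the fit on the C57 samples alone and in 7 of the 22 fits with a mouse left out.

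Of 10 measured adenylyl cyclases and phospholipase C beta genes, the effectors that these G proteins control, 5 rose and 1 fell in C57, and 6 rose and 0 fell in Mixed. Adcy1 rose by 0.85 in C57 and 1.67 in Mixed, and Adcy4 fell by 0.44 in C57. The call of Adcy4 was lost with no filter, in the fit on the C57 samples alone, with sample weights and in 7 of the 22 fits with a mouse left out, and the filter at a mean of 5 TPM removed the gene. Over all genes, 38% were called in C57 and 44.1% in Mixed. Of 12 carbohydrate-responsive genes, measured because Rgs16 is known in liver as a target of the carbohydrate-response factor ChREBP, 3 rose and 4 fell in C57, and 6 rose and 4 fell in Mixed. Mlxipl, which encodes ChREBP, fell by 1.85 in C57 and 2.30 in Mixed. The malic enzyme Me1 was called higher on both backgrounds (1.10 in C57), and the arrestin-like Arrdc4 rose by 1.65 in Mixed, so the list did not move one way. Txnip was called lower in C57 and higher in Mixed. Its call in C57 was lost with no filter, with sample weights and in 5 of the 22 fits with a mouse left out.

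The genes whose profile over the 22 samples lay closest to that of Rgs16 were Ffar2, Kcnab3, Nr1h3, Pcbp3 and Mir142hg. Likeness was the root mean square distance between profiles scaled to mean 0 and SD 1. It was taken over the 13398 genes past the filter whose symbols are not provisional names, for which the median distance was 1.55. Ffar2, a Gi- and Gq-coupled receptor for short-chain fatty acids, had the smallest distance (0.417) and averaged 49.1 ± 11.5 TPM in C57 WT, 18.5 ± 2.05 in C57 Het, 39.0 ± 3.39 in Mixed WT and 21.2 ± 3.36 in Mixed Het. Kcnab3, a potassium channel beta subunit, followed at 0.488 with 27.0 ± 2.96, 9.53 ± 1.03, 22.3 ± 3.07 and 10.5 ± 1.83 TPM in the same order, and Nr1h3, the nuclear receptor LXR alpha, at 0.507. Pcbp3 averaged 45.3 ± 4.58, 36.7 ± 3.18, 45.6 ± 2.07 and 40.1 ± 2.88 TPM in that order. Mir142hg lay near 1 TPM, at 1.64 ± 0.617, 0.384 ± 0.108, 1.24 ± 0.171 and 0.849 ± 0.308. These profiles share the libraries and their scaling, and the likeness is a description.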

How the data were processed

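Polyadenylated RNA of whole islets was sequenced in 22 mice, and the authors deposited 1 table of TPM, whose columns each sum to 1000000, for 57010 gene IDs, per the file headers. STAR 2.7.10b, MultiQC 1.7 and build mm39 are named per the submitters' processing notes. The counting tool and annotation are not given in the sources used here, so how reads shared between related genes were counted is unknown. Each column was matched to a mouse by the library name in its label, and 0 value columns were unused. Library numbers run through the groups in order, so library order and group cannot be told apart. Each library came from a separate mouse.

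The scale of analysis was log2(TPM + 1), on which changes of low genes are understated, and it covered the 16756 IDs with at least 1 TPM in at least 5 samples. limma 3.58.1 in R 4.3.3 fitted the 4 group means over the 22 samples (eBayes with trend), with Benjamini-Hochberg adjustment over all IDs and a threshold of 0.05. The script was tested on simulated data. The members and gene lists were chosen with earlier results of these data known. Genes named were the members, the other RGS genes past the filter, Mafa, the largest called change each way per list, contrast and interaction, direct partners and substrates, and the 5 profiles closest to Rgs16. Alternatives were a pseudocount of 0.1, no filter, a mean of at least 5 TPM, 3 other scalings (median of ratios, quantile, and a total without the 13 genes over 1% of a sample), a fit on the contrast's samples alone, eBayes without trend, sample weights, and leaving out each mouse.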

Additional observations from a re-analysis of the deposited data

Results flagged for a closer look

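In 5 of the 52 groups checked (13 genes in 4 groups), the highest or lowest mouse stood farther from the rest than Dixon's 95% criterion allows, which chance gives in about 1 group in 20. These were Rgs4 in Mixed WT replicate 1 (167 TPM, highest), Rgs17 in C57 WT replicate 1 (7.13 TPM, highest), Rgs10 in C57 WT replicate 5 (3.82 TPM, highest), Rgs7 in C57 WT replicate 5 (5.001 TPM, lowest) and Rgs12 in Mixed Het replicate 1 (4.16 TPM, highest). Rgs4 in Mixed WT replicate 1 is the one that closes the gap between genotypes on that background.

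The genotype difference itself differed between backgrounds for several genes by the limma interaction test. That test called 7.36% of all genes, 4.62% higher and 2.74% lower. Values are the Mixed difference minus the C57 difference in log2(TPM + 1). Rgs16 is not counted among these genes. Its value of 1.61 is a description, since it uses the C57 values known when the members were chosen. The value was 1.07 for Rgs1. Among genes of the G-protein lists that passed the interaction test, it was -0.82 for Gpr158, -0.81 for Gnai3, 0.59 for Gnas, 0.36 for Gnb2, -0.64 for Galr1, -0.60 for Grk3, 0.82 for Adcy1 and 0.82 for Adcy7. Among carbohydrate-responsive genes it was 1.81 for Arrdc4, 1.52 for Txnip and -0.58 for Acly. Of measured genes, 1 of 4 R7 partners and 1 of 5 Gi, Go and Gz alpha subunits passed. So did 1 of 3 genes of the Gs, G12 and G13 list and 1 of 11 beta and gamma subunits. For Gi-coupled receptors it was 1 of 13, and for kinases, arrestins and related genes 1 of 12. It was 2 of 10 cyclases and phospholipases and 3 of 12 carbohydrate-responsive genes. In the Gq class (3) and Gq-coupled receptors (9) it was 0. Adcy7 and Txnip were named after their values were seen, to complete the genes of these lists that passed. Adcy7 was near 1 TPM in C57, on average 0.908 in WT and 1.15 in Het. Of the 22 fits with a mouse left out, the call was lost in 18 for Gnb2, 15 for Grk3, 11 for Adcy1 and 11 for Acly. It was lost in none for the other tested genes named here. With no filter on low values Gnas, Gnb2, Grk3, Adcy1 and Acly lost it, Gnb2 lost it under 4 other settings, and Grk3 lost it without the variance trend. Gpr158, the R7 anchor, averaged 19.1 ± 5.34 TPM in C57 WT, 19.5 ± 2.59 in C57 Het, 24.3 ± 3.18 in Mixed WT and 14.1 ± 2.05 in Mixed Het, so its fall was in Mixed.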

How the results depend on the processing

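Leaving aside the Rgs16 genotype differences, 773 of 832 values recomputed under other settings kept their direction and their side of the threshold. So did 2006 of 2134 with a mouse left out. For the other Rgs16 contrasts, which have no test, a shift smaller than the SD within groups was counted instead. Outside these totals, the Rgs16 difference in Mixed lost its call under 1 setting and in 3 of the 22 fits with a mouse left out. No paired analysis was possible because replicate numbers follow accession order and pair no mice across groups. The interaction was not computed on a contrast's samples alone, and a filter at a mean of 5 TPM removes Rgs10, Rgs1, Rgs12 and Rgs19. For other changes the cause was not tested. Unknown depth limits what can be said of genes near 1 TPM.

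With no filter on low values the difference of Rgs16 in Mixed was the same -0.81 and lost its call. Counts over all 10 members include the fitted value of Rgs16, which is a description outside Mixed. The count of members called between backgrounds then went from 2 to 1 in WT and from 5 to 2 in Het, and that of the interaction from 1 to 0. In WT it was also 1 in the fit on the contrast's samples alone, and in Het 3 with the total without the most abundant genes. Of the other RGS genes, C57 genotype calls went from 0 to 3 with no filter, 2 with median-of-ratios scaling and 1 with quantile normalization, with the total without the most abundant genes, on the contrast's samples alone and with sample weights. Their Mixed genotype calls went from 2 to 4 with no filter, and with the filter at a mean of 5 TPM they were 0, as were their calls between backgrounds in WT (from 1) and Het (from 2) and in the interaction (from 1). Quantile normalization gave 1 in Het, and the interaction gave 2 with median-of-ratios scaling, with the total without the most abundant genes and with sample weights.

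Calls of R7 partners in C57 went from 1 to 0 under the 3 scalings, 2 on the contrast's samples alone and 3 with sample weights. Those of Gi, Go and Gz alpha subunits in Mixed went from 2 to 4 under the 3 scalings. Those of the Gq class in C57 went from 1 to 0 with no filter, a mean of 5 TPM, median-of-ratios scaling and the total without the most abundant genes, and in Mixed from 2 to 1 at a mean of 5 TPM. Gq-coupled receptors in C57 went from 5 to 3 on the contrast's samples alone, and in Mixed from 6 to 3 with no filter. Kinases, arrestins and related genes in C57 went from 3 to 1 on the contrast's samples alone and to 5 with sample weights, and cyclases and phospholipases, 6 on each background, went to 3 in C57 and 2 in Mixed at a mean of 5 TPM.

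Signs flipped only for differences that had not passed the test. In Mixed, Rgs5 (0.10) became -0.030 with median-of-ratios scaling, -0.036 with quantile normalization and -0.019 with the total without the most abundant genes, and Rgs9 (0.04) became -0.092, -0.052 and -0.081 in the same order. In C57, Rgs9 became 0.025 with sample weights, and Rgs10 became 0.000721 with quantile normalization and 0.0027 with sample weights.

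With each mouse left out in turn, members called numbered 6 in C57, 7 to 8 in Mixed, 1 to 3 between backgrounds in WT, 1 to 5 in Het and 1 to 2 in the interaction. The counts are over all 10 members, and Rgs16 among them is a description with no test outside the Mixed genotype contrast. The fit with all mice called 38%, 44.1%, 11.3%, 20.5% and 7.36% of all genes in the same order. Other RGS genes called numbered 0 to 1 in C57, 1 to 2 between backgrounds in Het and 1 to 2 in the interaction. The Rgs16 difference in Mixed ran from -0.92 to -0.55, that of Rgs5 from -0.012 to 0.26, that of Rgs9 from -0.052 to 0.13 and that of Rgs12 from -0.085 to 0.0098, and that of Rgs10 in C57 from -0.098 to 0.04996. Over the lists, calls ran from 1 to 2 for R7 partners, 0 to 1 for the Gq class, 3 to 5 for Gq-coupled receptors and 1 to 5 for kinases, arrestins and related genes in C57, and from 3 to 6 for Gq-coupled receptors in Mixed.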
